A study of Rattus norvegicus with 6 samples.

Results

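The 10 genes described here are immediate early genes that do not encode AP-1 subunits: the phosphatases Dusp1 and Dusp5, the zinc finger factors Egr1, Klf2, Klf4 and Klf6, the early response proteins Ier3 and Ier5, the RNA-binding protein Zfp36 and the nuclear receptor Nr4a1. They were chosen by name, and a probe was taken as theirs where its RefSeq accession belonged to one of these symbols. Each gene had 1 probe with 1 spot, so 10 of the 24684 non-control probes of the array were used. RNA of rat pancreas was measured on 1-colour Agilent arrays, with 3 scans from rats with acute pancreatitis (AP) and 3 from control rats. In the AP group the bile salt sodium taurocholate had been injected backwards into the pancreatic duct as a 4% solution at 1 mL/kg, and the pancreas was taken after 9 h. All rats were males of 6 weeks. The labels give neither the strain nor whether control rats had a sham operation.

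Immediate early genes are transcribed within minutes of a growth factor, stress or calcium signal, without the need for newly made protein. Many are switched on when MAP kinases activate factors that sit on their promoters already, such as serum response factor on CArG boxes and CREB on cAMP response elements (CREs). Several of their products end the same signal: dual-specificity phosphatases remove phosphate from MAP kinases, and Zfp36 (tristetraprolin) leads AU-rich messenger RNAs to decay. In the pancreas, stress and high doses of secretagogues are known to induce such genes in acinar cells.

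The scans labelled AP 2 and AP 3 came from 1 array, and so did control 2 and control 3. Spot deviations from the probe mean correlated with r = 0.992 and r = 0.993 in these pairs, against 0.199 to 0.739 in 13 pairs of scans from different arrays; these r run across 1644 spots, which share probes. The scans of an array were averaged, which left n = 2 arrays per group, and this number limits the precision of every value. The AP scans were dimmer, with a 75th percentile of the signal of 70.1 to 77.7, against 140 to 147 on control scans. A level below is a log2 signal minus the 75th percentile of its array. That scaling removed a mean difference of -0.97 in log2 (AP minus control), so a rise smaller than that is a fall on the unscaled signal. Directions follow the labels. Il6, Cxcl2 and the neutrophil gene S100a8, known as genes of inflammation, were at least 29.1-fold, 215-fold and 90.7-fold lower on the arrays labelled AP. In experimental pancreatitis such genes are known to rise, and whether the labels of the groups were exchanged was not tested. AP and control below mean the arrays so labelled, and each rise or fall depends on that. Of the acinar markers 11 were tested, of which 8 were higher and 3 did not pass, with a summed linear level of 60.1 to 70.6 on AP and 47.8 to 48.6 on control arrays. Their median log2 fold change was 0.90, smaller in size than the scaling difference of -0.97. Among all genes tested, 24.1% were called higher.

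The promoters of several members carry CArG boxes or CREs, and those that show how members differ are given here. The 150 bases before the annotated start are printed on the strand of the gene, from the RefSeq promoter table of the build GRCr8. Capitals mark a CArG box, the CRE TGACGTCA or its shortened form TGACG, searched on both strands.
Egr1 (chr18:26736928-26737077, plus strand): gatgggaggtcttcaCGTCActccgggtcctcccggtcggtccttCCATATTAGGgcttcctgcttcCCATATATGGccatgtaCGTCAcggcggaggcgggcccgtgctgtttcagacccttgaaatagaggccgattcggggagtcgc
Dusp5 (chr1:262543624-262543773, plus strand): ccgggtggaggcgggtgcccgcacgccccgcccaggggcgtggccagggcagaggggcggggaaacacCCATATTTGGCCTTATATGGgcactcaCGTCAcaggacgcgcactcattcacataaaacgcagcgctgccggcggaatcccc
Zfp36 (chr1:92799109-92799258, minus strand): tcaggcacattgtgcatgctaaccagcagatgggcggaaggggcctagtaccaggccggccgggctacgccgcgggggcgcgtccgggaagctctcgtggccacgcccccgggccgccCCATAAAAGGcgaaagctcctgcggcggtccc
Dusp1 (chr10:17184703-17184852, plus strand): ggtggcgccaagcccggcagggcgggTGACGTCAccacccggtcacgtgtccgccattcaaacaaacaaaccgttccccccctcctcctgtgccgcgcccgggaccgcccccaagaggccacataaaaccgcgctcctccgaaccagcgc
Nr4a1 (chr7:134259988-134260137, plus strand): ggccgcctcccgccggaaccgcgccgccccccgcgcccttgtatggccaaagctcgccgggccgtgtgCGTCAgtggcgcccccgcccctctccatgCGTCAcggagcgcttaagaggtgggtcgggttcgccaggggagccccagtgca
Ier5 (chr13:69822543-69822692, minus strand): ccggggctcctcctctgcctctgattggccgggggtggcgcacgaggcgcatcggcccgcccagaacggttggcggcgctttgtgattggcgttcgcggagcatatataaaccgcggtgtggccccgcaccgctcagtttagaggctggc
Egr1 and Dusp5 each had a pair of CArG boxes, which adjoin without a gap in Dusp5, and Zfp36 had a single one that starts 32 bases before the start. Dusp1 had a full CRE at 124 bases before it, Nr4a1 had the short form at 82 and 53 bases in the printed stretch, and Ier5 had neither motif. A CArG box stood within 250 bases upstream of 4 of the 8 members in the table (Klf6 also, at 201 bases), against 1.52% of 21851 promoters of protein-coding genes. The full CRE stood before 1 of the 8, against 1.89%, and the short form, which also counts every full CRE, before 4 of the 8, against 20.4%. The AP-1 motif TGANTCA was found before 0 of the 8, against 5.69% of the promoters. The window of Klf4 starts from a transcript whose start lies inside the span of the gene. These are matches of letters only.

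**Figure D1:**
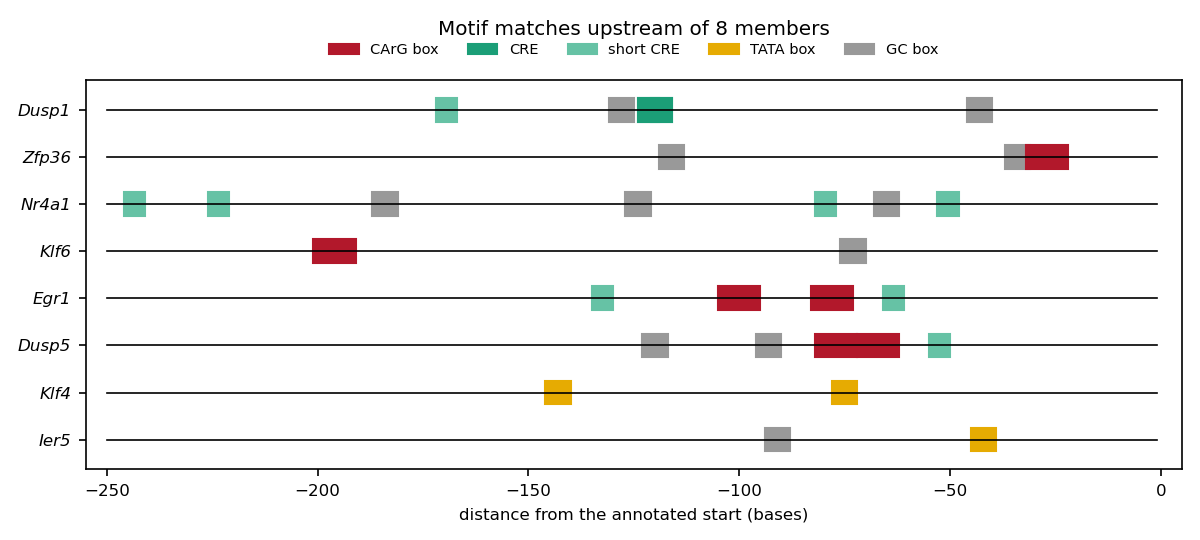
Motif matches in the 250 bases before the annotated start of 8 members, on both strands; the x axis is the distance from the start in bases and each coloured block is 1 match. CArG boxes appear in Zfp36, Klf6, Egr1 and Dusp5, and the full CRE in Dusp1 alone of the 8.

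Most of these early response genes were lower on the arrays labelled AP, and Klf2 and Ier5 were higher. Of the 10 members, 6 fell (Dusp1, Klf4, Ier3, Klf6, Nr4a1 and Zfp36), 2 rose (Klf2 and Ier5) and 2 did not pass the threshold (Dusp5 and Egr1). Over 8732 genes, represented by their brightest probe, 31.9% were called lower and 24.1% higher, 56.0% in either direction; over all 13220 probes these shares were 28.2%, 26.9% and 55.1%. The members had a median change of -1.24 in log2, which became -0.75 when Egr1 and Klf6 were set to their bounds, beside -0.03 over all genes tested. All 10 probes passed the filter on dim probes, but Egr1 and Klf6 passed it only through the control scans. On no member did the levels of the 2 groups overlap, which also held for 79.8% of 8681 genes with a value on each array. A call is a limma adjusted p below 0.05 over 13220 probes. With any 1 array left out, 6 to 8 members were called.

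**Figure D2:**
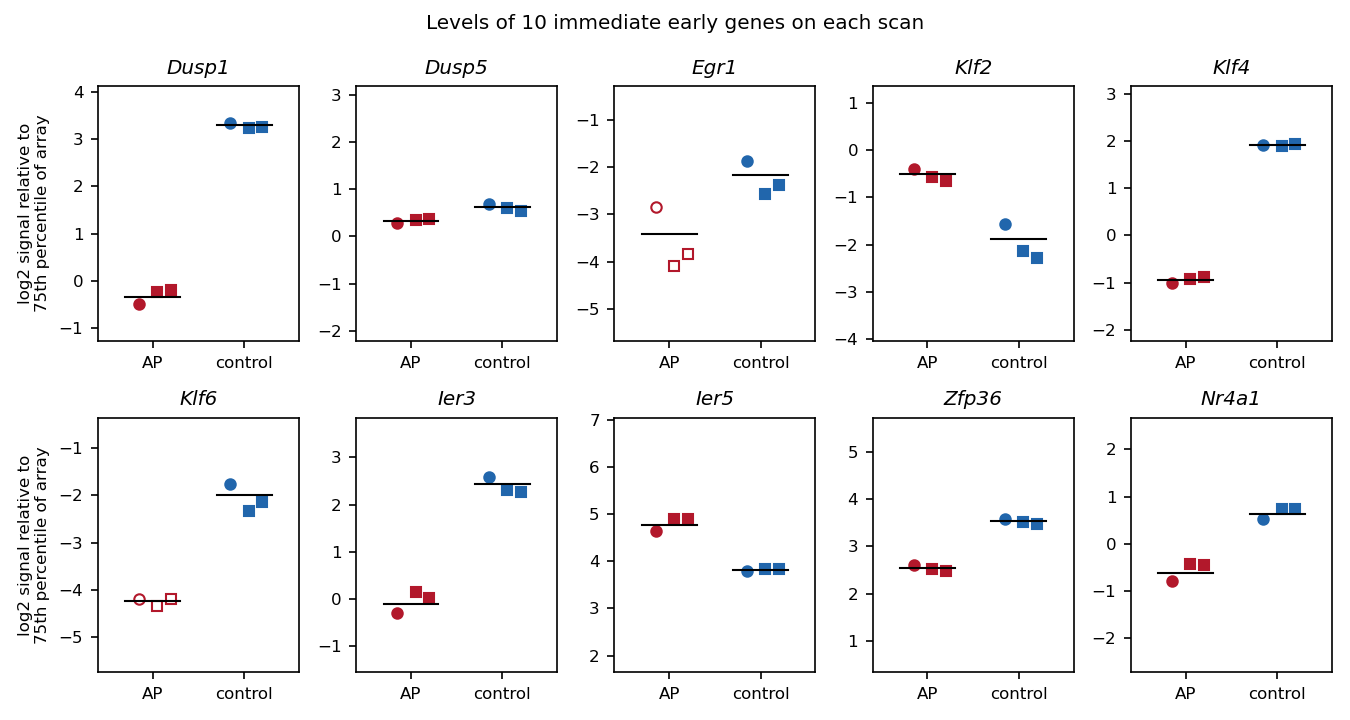
Level of each member on every scan, as log2 signal relative to the 75th percentile of the array, with AP (red) left of control (blue); circles are replicate 1, squares the 2 scans of the second array, open symbols mark a group with no scan well above background, and black lines are the means of 2 arrays. Each panel spans the same height on its own offset: Dusp1 stands at -0.48 to -0.19 on AP scans and 3.24 to 3.34 on control scans, while Klf2 and Ier5 are higher in AP.

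Dusp1, the phosphatase that inactivates stress-activated MAP kinases in the nucleus, had levels of -0.48, -0.24 and -0.19 on AP scans 1, 2 and 3, against 3.34, 3.24 and 3.25 on control scans 1, 2 and 3. All AP scans were far below all control scans, and the scans of each group lay close together. The fall was 12.5-fold (log2 fold change -3.64 ± 0.14, SE, n = 2 arrays per group, adjusted p = 0.000815). On the scanner's own scale the Dusp1 spot gave signals of 55.5, 59.4 and 64.9 on AP scans and 1490, 1326 and 1392 on control scans. The fall of Dusp1 was the largest change among the 8 members detected in both groups, in either direction. Egr1 and Klf6 have only an approximate bound. Dusp1 kept its call under all 16 alternatives (-4.60 to -2.62).

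Dusp5, a phosphatase of the nucleus that acts on ERK, stood at 0.28, 0.34 and 0.38 on AP scans, against 0.68, 0.61 and 0.53 on control scans. The AP scans were slightly lower and the groups did not overlap, but the difference was small. The fit gave -0.31 ± 0.10 (SE, n = 2 arrays per group) and an adjusted p of 0.0749, so no change was called. Dusp5 passed without scaling (-1.26, adjusted p = 0.00176), with the 6 scans taken as separate replicates (-0.28, adjusted p = 0.009), with the scan session as a block (adjusted p = 0.0229), with the filter asking for a signal above background on each scan (0.0496) and with a robust variance trend (0.0447).

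Among the other dual-specificity phosphatases, falls were common as well. Of 11 tested genes of the family, Dusp1 and Dusp5 among them, 8 were lower, 1 was higher and 2 did not pass, at a median of -1.43 in log2 (-0.95 when Dusp6, Dusp9 and Dusp19, at background in AP, took their bounds). Dusp6, Dusp9 and Dusp19 passed the filter on dim probes only through the control scans. Over all genes tested, 31.9% were called lower and 24.1% higher. Dusp6, a cytoplasmic phosphatase of ERK and a feedback gene of that pathway, was at background on AP arrays and at least 2.34-fold lower. Dusp10 and Dusp16, which act on JNK and related kinases, were lower by similar amounts: the log2 fold change was -1.47 ± 0.10 for Dusp10 (adjusted p = 0.00208) and -1.44 ± 0.10 for Dusp16 (adjusted p = 0.00213). Dusp22 was 3.46-fold lower. Dusp9, counted among the lower genes by its fitted value (adjusted p = 0.00584), was at background on AP arrays, and its bound shows no fall. Dusp2, a phosphatase known from activated lymphocytes, was the only 1 of the 11 called higher, with 0.91 ± 0.0045 on AP and 0.068 ± 0.018 on control arrays (SD, n = 2 each). Its log2 fold change was 0.84 ± 0.09 (SE, limma adjusted p = 0.00506). On the scanner's own scale the Dusp2 signals were 146, 130 and 139 on AP scans and 156, 149 and 149 on control scans. Each AP signal was below each control signal, so the rise depends on the scaling.

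Egr1, a zinc finger factor used widely as a sign of recent MAP kinase signalling, was dim in both groups. Its level was -2.84, -4.09 and -3.85 on AP scans, against -1.87, -2.57 and -2.37 on control scans. The probe was well above background on 0 of 3 AP scans and on 3 of 3 control scans, and AP scan 1 lay above the other AP scans. The approximate bound put Egr1 1.26-fold lower in AP, but the fitted change, -1.24 ± 0.48 (SE, n = 2 arrays per group), did not pass (adjusted p = 0.101). No change of Egr1 was called. It passed without AP replicate 1 (-1.80, adjusted p = 0.0413) and without scaling (-2.20, 0.0215), while normexp background correction gave 0.17 (0.656).

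Of 4 tested genes of the EGR and NAB group, Egr3 fell, and Egr1, Egr2 and Nab2 did not pass. Egr3, also induced by MAP kinase and calcium signals, fell 2.45-fold (-1.29 ± 0.11 in log2, SE, n = 2 arrays per group, adjusted p = 0.00329). Egr2 gave -0.36 ± 0.12 (adjusted p = 0.0714), and Nab2, a corepressor that binds EGR proteins, 0.76 ± 0.43 (adjusted p = 0.218). Egr4 and Nab1 were not well above background on any scan. The difference between the changes of Egr1 and Egr3 was not tested.

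Klf4, a factor of epithelial differentiation and cell cycle arrest, was at -1.004, -0.92 and -0.89 on AP scans, against 1.92, 1.90 and 1.93 on control scans. The groups were far apart, and the scans within each were close together. The fall was 7.33-fold (-2.87 ± 0.10, SE, n = 2 arrays per group, adjusted p = 0.000719), and its call held in all 16 alternatives. Klf6, a factor induced by tissue injury, stood at -4.19, -4.34 and -4.19 on AP scans, against -1.76, -2.33 and -2.13 on control scans. It was at background on every AP scan and at least 1.43-fold lower there (fitted log2 fold change -2.23 ± 0.20, adjusted p = 0.00337). With normexp background correction Klf6 gave 0.047 with the opposite sign (adjusted p = 0.904); that setting changed both the background method and the spot signal used, and the cause was not tested.

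Klf2, a factor of quiescent T cells and of endothelium under flow, went the other way. It stood at -0.40, -0.57 and -0.65 on AP scans, against -1.56, -2.13 and -2.28 on control scans. Every AP scan was above every control scan, although control scan 1 stood apart from the other control scans. The rise was 2.60-fold (1.38 ± 0.26, SE, n = 2 arrays per group, adjusted p = 0.0187). On the scanner's own scale the Klf2 signals overlapped, with 58.8, 47.4 and 47.2 on AP scans and 49.9, 32.1 and 30.0 on control scans, and without scaling the change was 0.42 (adjusted p = 0.26). The call was also lost with normexp background correction (0.51, 0.167) and without AP replicate 1 (1.28, 0.0818) or the second AP array (1.48, 0.0666).

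Markers of lymphocytes moved with Klf2. Of 8 tested T lymphocyte markers 7 were higher; Cd5, at background on AP arrays, had a lower fitted value (-0.48, adjusted p = 0.0466), but its bound shows no fall. Their summed linear level was 36.3 to 37.3 on AP arrays and 3.29 to 3.98 on control arrays. Ccr7 and Cd4 were at background on all scans. Of 4 tested B lymphocyte markers 3 were higher and Pax5 did not pass (-0.24, adjusted p = 0.437), with a summed level of 3.53 to 3.66 on AP and 0.517 to 0.564 on control arrays. Cd79b, Tnfrsf17 and the T cell gene Il7r were at background on the control scans and passed the filter only through the AP scans. Among all genes tested, 24.1% were called higher and 31.9% lower. The part of these cells in the level of Klf2 and Dusp2 was not tested. In whole tissue, fewer cells of a type and less RNA per cell cannot be told apart. Of 6 tested genes known to respond to KLF2, S1pr1, a receptor that lets T cells leave lymphoid tissue, was higher (0.98, adjusted p = 0.00397), and 5 endothelial genes were lower: Nos3 (-1.34), Thbd (-3.89), Ccn3 (at least 3.93-fold), Tek (-0.71) and Aqp1 (-0.61). On the scanner's own scale the S1pr1 signals overlapped, with 335, 298 and 293 on AP scans and 316, 302 and 305 on control scans. Of 5 tested endothelial markers 3 were lower (Tek, Emcn and Esam) and 2 higher (Cldn5 and Flt1), with a summed level of 4.71 to 4.91 on AP and 11.3 to 11.6 on control arrays. Pecam1 and Cdh5 were not tested.

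Over the KLF family, 5 of 11 tested genes were lower, Klf2 was higher and 5 did not pass, at a median of -0.30 (-0.28 with Klf6 and Klf11 at their bounds). Klf6 and Klf11 passed the filter only through the control scans, and 31.9% of all genes tested were called lower. Klf10, which is induced by transforming growth factor beta, fell 5.57-fold (-2.48 ± 0.22, SE, n = 2 arrays per group, adjusted p = 0.00335). Klf3, a repressor, fell by 0.52 and Klf1, the erythroid factor, fell by 0.78 in log2. Erythroid markers were lower on the same arrays, 3 of 4 tested with Hemgn higher, and their summed level was 29.0 to 29.8 on AP and 628 to 725 on control arrays; their part in the level of Klf1 was not tested. Klf11, Klf13, Klf14, Klf15 and Klf16 lay between -0.30 and 0.21 and did not pass.

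**Figure D3:**
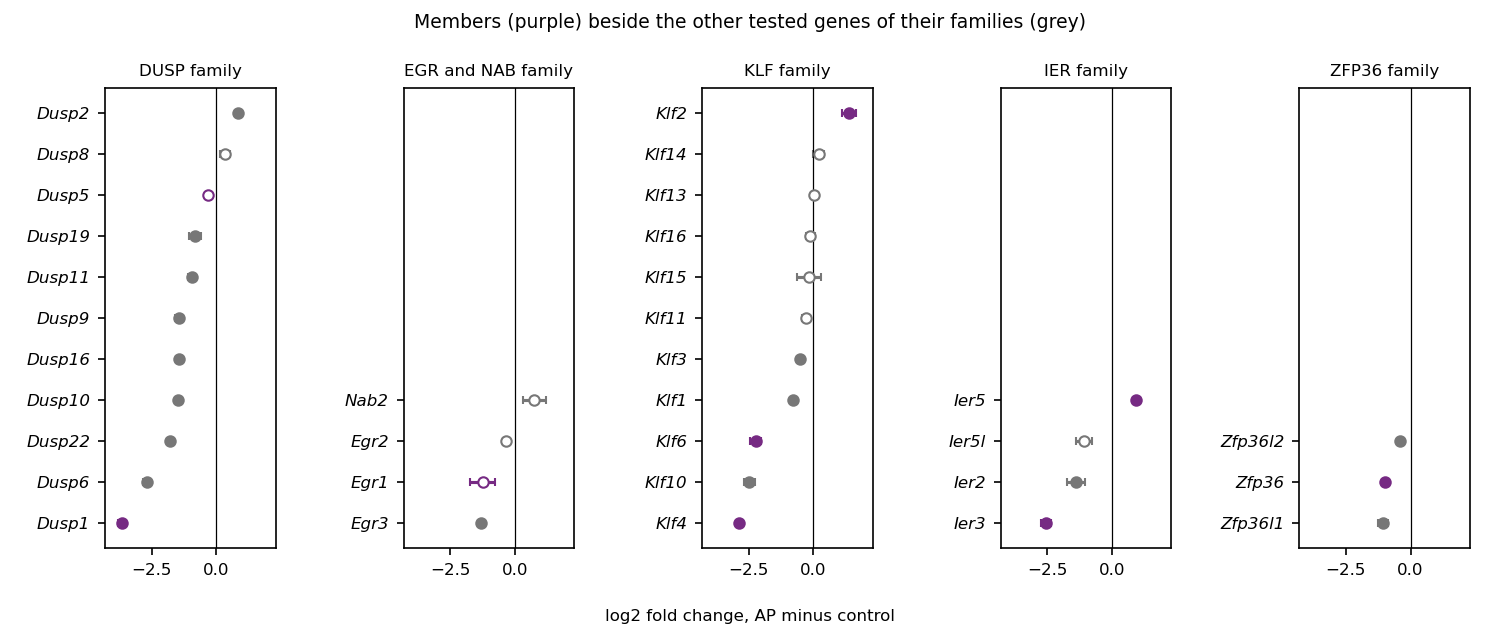
Log2 fold change (AP minus control) with its SE for the tested genes of 5 families, n = 2 arrays per group; purple marks the members, grey the other genes, and open circles an adjusted p of 0.05 or more. Dusp2, Klf2 and Ier5 are the genes called higher, and Dusp1, Klf4 and Ier3 have the lowest values of their families.

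Ier3, a short-lived protein that protects cells from death signals, was at -0.29, 0.15 and 0.029 on AP scans, against 2.58, 2.31 and 2.27 on control scans. The gap between the groups was larger than the spread within either. It fell 5.81-fold (-2.54 ± 0.20, SE, n = 2 arrays per group, adjusted p = 0.00259), with a call in each of the 16 alternatives (-3.50 to -1.77). Ier5, which is known to act on heat shock factor, stood at 4.64, 4.89 and 4.88 on AP scans, against 3.80, 3.84 and 3.84 on control scans. All AP scans were above the control scans on this scale, a rise of 1.92-fold (0.94 ± 0.13, adjusted p = 0.00846). Its unscaled signals overlapped: 1933, 2081 and 2183 on AP scans and 2048, 2011 and 2094 on control scans. The change of Ier5 was -0.015 without scaling (adjusted p = 0.921), and its call was also lost with normexp background correction (0.48, 0.253) and without either control array (0.92, 0.0513, without replicate 1, and 0.96, 0.0518, without the second array). Of the other genes with this name, Ier2 was lower (-1.38 ± 0.36, adjusted p = 0.039) and Ier5l did not pass (-1.08 ± 0.32, adjusted p = 0.056).

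Zfp36 had levels of 2.60, 2.52 and 2.48 on AP scans, against 3.58, 3.52 and 3.48 on control scans. The scans of each group lay close together, and the groups did not overlap. Zfp36 fell 1.99-fold (-0.99 ± 0.10, SE, n = 2 arrays per group, adjusted p = 0.00459), and its call held in all 16 alternatives (-1.95 to -0.84). Both tested relatives, which also bind AU-rich elements, fell: Zfp36l1 by 1.06 ± 0.18 (adjusted p = 0.0141) and Zfp36l2 by 0.40 ± 0.10 in log2 (adjusted p = 0.0327). Messenger RNAs known to be bound by Zfp36 were mostly lower too, 10 of 14 tested, Ier3 among them, with Tnf (0.49), Il10 (1.88) and Plau (1.04) higher and Ptgs2 at -0.04 (adjusted p = 0.884). That list had a median of -3.18, with or without the bounds of its genes at background. Il6, Cxcl2, Il1a and Plaur of that list passed the filter only through the control scans. Over all genes tested, 31.9% were called lower. The rise of Tnf depends on the scaling: its unscaled signals were 31.2, 28.6 and 26.4 on AP scans and 42.6, 37.7 and 39.6 on control scans. Unscaled signals of Plau overlapped between the groups.

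Nr4a1, an orphan nuclear receptor (Nur77) induced by calcium and growth factor signals, was at -0.79, -0.43 and -0.44 on AP scans, against 0.53, 0.73 and 0.74 on control scans. The groups did not overlap, and AP scan 1 was the lowest. It fell 2.37-fold (-1.25 ± 0.17, SE, n = 2 arrays per group, adjusted p = 0.00869). The call was lost without the second control array (-1.15, adjusted p = 0.0556) and with normexp background correction (-0.60, 0.088). Nr4a2 was above background on 2 of 3 control scans and no AP scan, and Nr4a3 on none, so neither was tested.

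**Figure D4:**
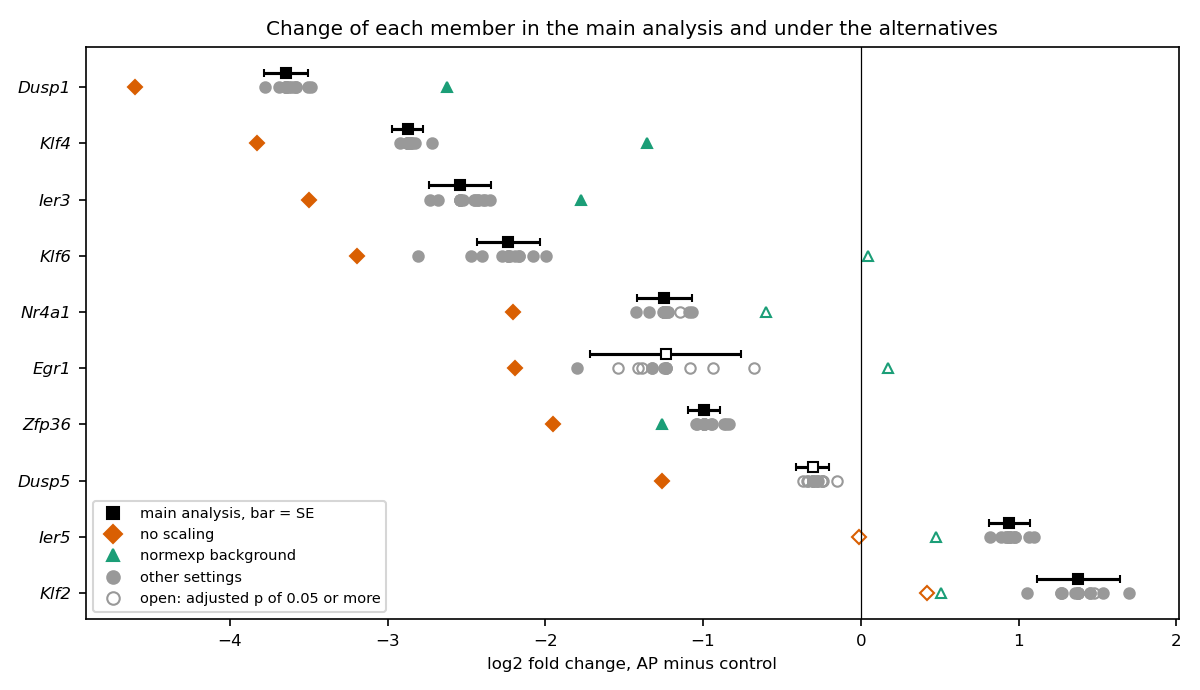
Log2 fold change (AP minus control) of each member in the main analysis (black square, bar = SE, n = 2 arrays per group) and in each alternative setting; filled symbols mark an adjusted p below 0.05. Without scaling (orange) every member moves lower, Ier5 to -0.015 and Klf2 to 0.42, and with normexp (green) Klf6 moves to 0.047.

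Immediate early genes outside the membership, AP-1 subunits among them, moved the same way in most cases. Of 31 tested, 20 were lower, 2 were higher and 9 did not pass, at a median of -1.28 (-1.11 with the bounds of genes at background). Among these genes, 7 were at background on AP arrays and passed the filter only through the control scans. Over all genes tested, 31.9% were called lower and 24.1% higher. Fosl1, an AP-1 subunit, was at background on AP arrays and at least 9.88-fold lower. Jun, another subunit, averaged -1.09 ± 0.014 on AP and 1.72 ± 0.02 on control arrays (SD, n = 2 each; log2 fold change -2.81 ± 0.09, SE, adjusted p = 0.000712). Fos was at background on AP arrays and did not pass (-0.76 ± 0.66, adjusted p = 0.387). Rhob, a small GTPase (0.98 ± 0.11, adjusted p = 0.00499), and Btg1, an antiproliferative gene abundant in lymphocytes (0.91 ± 0.18, adjusted p = 0.0192), were higher. The value of Btg1 is smaller than the scaling difference of -0.97 in size. Unscaled signals of Rhob and Btg1 overlapped between the groups, with Rhob at 13320 to 13830 on AP scans and 13104 to 13768 on control scans.

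Other cell markers differed between the groups beside these falls. Among all genes tested, 31.9% were called lower and 24.1% higher. Of 6 tested adipocyte markers 5 were lower and Lep did not pass, with a summed level of 15.8 to 15.9 on AP and 441 to 444 on control arrays. Of 7 tested fibroblast and stellate cell markers 6 were lower and Lum did not pass (37.5 and 31.7 on AP arrays, 147 and 184 on control arrays). Dcn had no value on control array 1, so the sum of 147 leaves it out. Of 4 tested neutrophil markers S100a8 and Csf3r, at background on AP arrays, were lower, Ncf1 was higher and Cxcr2 did not pass (0.738 to 1.82 on AP, 16.3 to 17.7 on control arrays). All 3 tested duct cell markers, Krt19, Krt8 and Spp1, were lower (4.55 to 4.58 on AP, 17.2 to 18.0 on control arrays). Of 7 tested macrophage markers Csf1r and Marco were higher, Mrc1 was lower and 4 did not pass. Marco was at background on control arrays and passed the filter only through the AP scans. The rise of Csf1r depends on the scaling: its unscaled signals were 1015, 977 and 1039 on AP scans and 1544, 1478 and 1562 on control scans. The part of all these cell types in the levels of the early response genes was not tested.

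The genes whose pattern over the 4 arrays was nearest to Egr1 and Klf2 were taken by the Euclidean distance between centred log2 levels, among 8671 genes outside the membership. For Egr1, whose AP values lie at background, the nearest were Mospd1 (distance 0.24), Zfp37 (0.24) and Gpr84 (0.30), and their order has no meaning there. Nearest to Klf2 were Sit1 (0.044), Kcnk5 (0.087) and Btc (0.096). Sit1 encodes an adaptor protein of lymphocytes. Among the members, Klf4 and Ier3 were nearest to each other (0.44), followed by Zfp36 and Nr4a1 (0.46), and Dusp1 and Klf2 were farthest apart (5.05). With 4 arrays in 2 groups, such a distance reflects mostly the size of the change.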

How the data were processed

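The authors deposited 1 Agilent table per scan and a table of normalized values. Per the file headers, Feature Extraction 11.0.1.1 gave each spot an intensity that was background-subtracted and spatially detrended, with no scaling between arrays; the design was annotated on rn4. The deposited normalized table is in log2; its method is not stated in the labels. Per the labels, RNA was freed of ribosomal RNA, amplified with random primers and labelled with Cy3.

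Control spots and spots marked as uniformity or population outliers were left out, log2 intensities were averaged per probe and set relative to the 75th percentile of their scan. Rescans (r above 0.9) were averaged. The filter kept a probe that was well above background on 3 or more of the 6 scans, and 13220 were fitted with limma 3.58.1 (lmFit, eBayes, two-sided, R 4.3.3), AP against control, 2 residual degrees of freedom, with p values adjusted by Benjamini and Hochberg. Of these, 71 had a value on only 1 array of a group; every member had all 4. A probe at background on all scans of a group has a fold against the lowest signal well above background, or its own where higher, an approximate bound. Values after ± are SD of arrays or SE of the fit. The normexp alternative (offset 50) used median spot signals, since the tables hold no mean signal. Symbols came from RefSeq GRCr8 by unversioned accession, for 14294 probes. Tables were made with Python 3.11.15, numpy 2.4.6 and pandas 2.3.3. The limma step was tested on simulated data with few changed probes, no background floor and no brightness difference between the groups. That test does not cover the scaling or probes at background.

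All 10 members are named, with the tested genes of their families; of the other lists, genes at the head, the largest changes and small counts. The members and lists were chosen with earlier results of these data known. Some listed genes are not reported here and were left out of the counts and sums of their lists. Where nothing shows separate animals, p values measure only the spread between these arrays, which all lay on 1 slide with AP and control in different slots. Place and group cannot be told apart.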

Additional observations from a re-analysis of the deposited data

How the results depend on the processing

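Over 16 alternatives, Dusp1, Klf4, Ier3 and Zfp36 kept their direction and call. The number of members called was 8 in the main analysis, and 4 with normexp background correction (0 higher and 4 lower), where 2659 probes were called in place of 7282; it was 10 with the 6 scans as separate replicates. With 1 array left out, 6 to 8 members and 4641 to 5840 probes were called; the lone array is then assumed to vary like the others. The members with opposite signs were Klf6 (0.047) and Egr1 (0.17, not called in either) with normexp, and Ier5 without scaling (-0.015). Without scaling 8.97% of the probes called were higher, with normexp 35.2% and with no filter on dim probes 66.9%, against 48.8% in the main analysis, and 56.7% where the percentile was taken over probes detected on each scan. The median over all probes was 0.08 in the main analysis, -0.88 without scaling, 0.19 with normexp, 0.24 with that percentile and 0.38 with no filter. The first scan session alone called 8 members. The replicate number, which the labels do not tie to a shared litter or day, called 9 members and 5516 probes as a replicate block; the difference between arrays 1 and 2 correlated with r = -0.21 between the groups across probes. Egr1 passed with that block (adjusted p = 0.0333), with the scan session as a block (0.0341) and with 6 scans (0.02). The session block and the 6 scans count the scans of an array as replicates, which overstates the number of arrays. Klf6 and Egr1 have no value where a probe must be detected on each scan. No other probe of a member existed to try. The depth limit is the signal over background, which leaves Egr1 and Klf6 with bounds.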

Other observations

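The kinases that the phosphatases act on, and the factors that act on CArG boxes and CREs, were called in both directions on the scaled levels. Of 7 tested MAP kinases and their activators, 3 were lower, 2 were higher and 2 did not pass (median log2 fold change -0.18); Mapk3, which did not pass, had a value on 1 array of each group. Over all genes tested, 31.9% were lower and 24.1% higher. Map2k3, which activates stress kinases, was lower (-2.07 ± 0.09, SE, n = 2 arrays per group, limma adjusted p = 0.00101), Map2k1 was lower (-1.28 ± 0.13, adjusted p = 0.00446), and Mapk14 was lower (-0.61 ± 0.11, adjusted p = 0.0156). Mapk11 (2.47 ± 0.46, adjusted p = 0.0173) and Map2k4 (1.05 ± 0.16, adjusted p = 0.0114) were higher. Unscaled signals of Map2k4 overlapped between the groups. Srf, the gene of serum response factor, had a level of 0.66 ± 0.037 on AP and 0.87 ± 0.088 on control arrays (SD, n = 2 each) and did not pass (-0.21 ± 0.10, adjusted p = 0.166). Elk4, a cofactor of it, was higher (0.60 ± 0.10, adjusted p = 0.0141). That rise depends on the scaling: the unscaled Elk4 signals were 312, 256 and 277 on AP scans and 382, 355 and 357 on control scans. The brighter probe of Creb1, not detected on the AP scans, was at least 1.28-fold lower. Its other probe was at background on every scan and was not tested. For Crem the brighter probe did not pass (-0.30, adjusted p = 0.0614) and the other, not detected on the AP scans, was at least 2.31-fold lower.

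In the authors' deposited table, Dusp1 stood at 6.19, 6.43 and 6.48 on AP scans and at 10.1, 9.84 and 9.86 on control scans. Klf6 was at the floor of that table on each AP scan, at 2.35, 2.38 and 2.36, against 4.86, 4.58 and 4.76 on control scans.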
